A study of Mus musculus with 6 samples.

Results

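The genes described here are 10 transcripts of the hypoxia-inducible factor (HIF) pathway, namely Hif1a, its hydroxylases Egln1 and Egln3, and 7 genes that HIF is known to induce, Vegfa, Bnip3, Bnip3l, Slc2a1, Pdk1, Hk2 and P4ha1. They were chosen by gene name, and all 10 were found among the 23060 gene names of the table. RNA had been sequenced from cultures labelled HL-1, an established mouse atrial cardiomyocyte line, to see how expression changes with tachypacing, which is rapid electrical stimulation used in culture to mimic the atrial rate of fibrillation. The 3 control and 3 tachypaced libraries were all labelled WT, and the cells were grown in Claycomb medium with fetal bovine serum, penicillin/streptomycin, norepinephrine and L-glutamine. The rate and duration of pacing are not given in the labels, and the labels do not tell separate cultures from repeat libraries of a culture, so every p-value here reflects the spread among these libraries, which could be technical. Levels are FPKM, in which fragments are divided by the length of the transcript and by the size of the library, a scale on which genes of different length can be compared.

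HIF is a transcription factor made of an oxygen-regulated alpha subunit, such as the product of Hif1a, and a constant partner, ARNT. In the presence of oxygen the EGLN enzymes hydroxylate prolines of the alpha subunit, the VHL ubiquitin ligase then binds it, and it is degraded, so that its mRNA level and its protein level can diverge. When oxygen falls, HIF enters the nucleus and induces genes for glucose uptake, glycolysis, removal of mitochondria and vessel growth, in cardiac muscle under ischaemia as in activated macrophages. Egln1 and Egln3 are themselves HIF targets, which closes a feedback loop.

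HIF binds DNA at a short core, ACGTG or GCGTG, known as the hypoxia response element. RefSeq promoter windows (GRCm38.p6) of 300 bases, 250 before and 50 after a gene's start, were searched for both cores on both strands, and 11 windows matched 9 of the 10 symbols. The ACGTG core was present in 8 of these 11 windows, in 19.6% of all 32851 windows and in 26.9% of the 10256 windows of the genes tested below. GCGTG was present in 6 of the 11, in 32.4% of all windows and in 52.1% of those of the tested genes. The following stretches are all upstream of the RefSeq start and outside annotated exons of the gene. They show the core in genes that the test below called lower only without control replicate 1 (Egln1, Pdk1, Hk2 and Bnip3). They also show it in genes that no fit called (Slc2a1, P4ha1 and Hif1a). The Hif1a stretch lies inside the GENCODE span of its gene, which begins at 73901375. Bnip3l was the symbol not matched. Capitals mark the core on either strand, so that CACGT is ACGTG and CACGC is GCGTG read from the opposite strand, and CACGTG holds ACGTG on both strands.
Egln1, chr8:124949361-124949395, minus strand: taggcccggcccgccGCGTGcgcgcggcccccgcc
Pdk1, chr2:71873131-71873165, plus strand: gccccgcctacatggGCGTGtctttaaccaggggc
Hk2, chr6:82774487-82774521, minus strand: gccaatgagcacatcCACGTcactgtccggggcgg
Bnip3, chr7:138909586-138909638, minus strand: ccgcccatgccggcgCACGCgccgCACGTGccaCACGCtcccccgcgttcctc
Slc2a1, chr4:119108669-119108703, plus strand: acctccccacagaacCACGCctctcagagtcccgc
P4ha1, chr10:59323155-59323189, plus strand: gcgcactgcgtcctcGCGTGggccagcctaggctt
Hif1a, chr12:73907717-73907752, plus strand: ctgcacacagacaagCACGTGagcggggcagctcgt

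The Bnip3 window had the most matches, 5, of which the 4 shown begin 117 bases before its start. The first Vegfa window had 0 matches, and a second window, at a start site inside the gene, had 1 of each core. A match of 5 letters is a description of the window and not evidence that HIF binds there.

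Depth and cell identity bear on every value. FPKM summed to between 411050 and 416820 per library in the controls and between 419557 and 432244 with tachypacing, without overlap. Read depth is unknown. Of 20 cardiomyocyte markers 9 were listed at 0 in all libraries (Myh6, Actc1, Myl7, Nppb, Nkx2-5, Gata4, Tbx5, Pln and Sln), and the 20 together summed to 3.52 to 4.52 FPKM in the controls and 4.08 to 4.51 FPKM with tachypacing. The 15 macrophage markers summed to 1467 to 1656 FPKM in the controls and 1837 to 2041 FPKM with tachypacing, with Mrc1, C1qa and C1qb at 0 throughout. Of the 11 macrophage markers tested 4 rose and 0 fell, against 2.30% and 3.22% of all tested genes by the test described below, and without control replicate 1 8 rose and 0 fell, against 11.2% and 18.8%. The levels below are therefore those of libraries labelled HL-1 with few cardiac and many macrophage transcripts. Control replicate 1 lay toward the tachypaced libraries in much of the table, also in the macrophage markers, where its sum of 1656 FPKM was the highest of the controls, so the counts, the 10 genes and the calls that depend on it are also given without it. The part of these differences in the results below was not tested, and in bulk RNA fewer cells of a type cannot be told apart from less RNA per cell.

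All 10 genes were measured well above the minimum mean of 1 FPKM. Slc2a1 (the glucose transporter GLUT1) and Bnip3 (a mitophagy receptor of the outer mitochondrial membrane) were the most abundant, with means over the 6 libraries of 341 ± 22.4 and 329.8 ± 27.7 FPKM (SD, n = 6), each above 98.3% of the 10361 tested genes. Their library values overlapped, so their order was not resolved. Bnip3l (NIX, the paralog of Bnip3 that clears mitochondria in maturing red cells) averaged 116 ± 8.10 FPKM and P4ha1 (the catalytic subunit of collagen prolyl 4-hydroxylase) 105 ± 4.18 FPKM. Vegfa, the vascular endothelial growth factor, averaged 73.6 ± 3.66 FPKM and Hif1a 62.4 ± 4.47 FPKM, and these neighbours did not overlap within either group. Egln1 (PHD2, the main HIF prolyl hydroxylase in most cells) averaged 32.5 ± 4.69 FPKM, Pdk1 (a kinase that switches off pyruvate dehydrogenase) 25.6 ± 3.23 FPKM and Hk2 (an inducible hexokinase that binds mitochondria) 24.2 ± 2.45 FPKM. Across the controls the ranges of Egln1 and Pdk1 and those of Pdk1 and Hk2 overlapped, while across the tachypaced libraries none of these pairs did. Egln3 (PHD3) was the lowest, at 5.90 ± 0.776 FPKM, above 32.3% of tested genes.

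**Figure D1:**
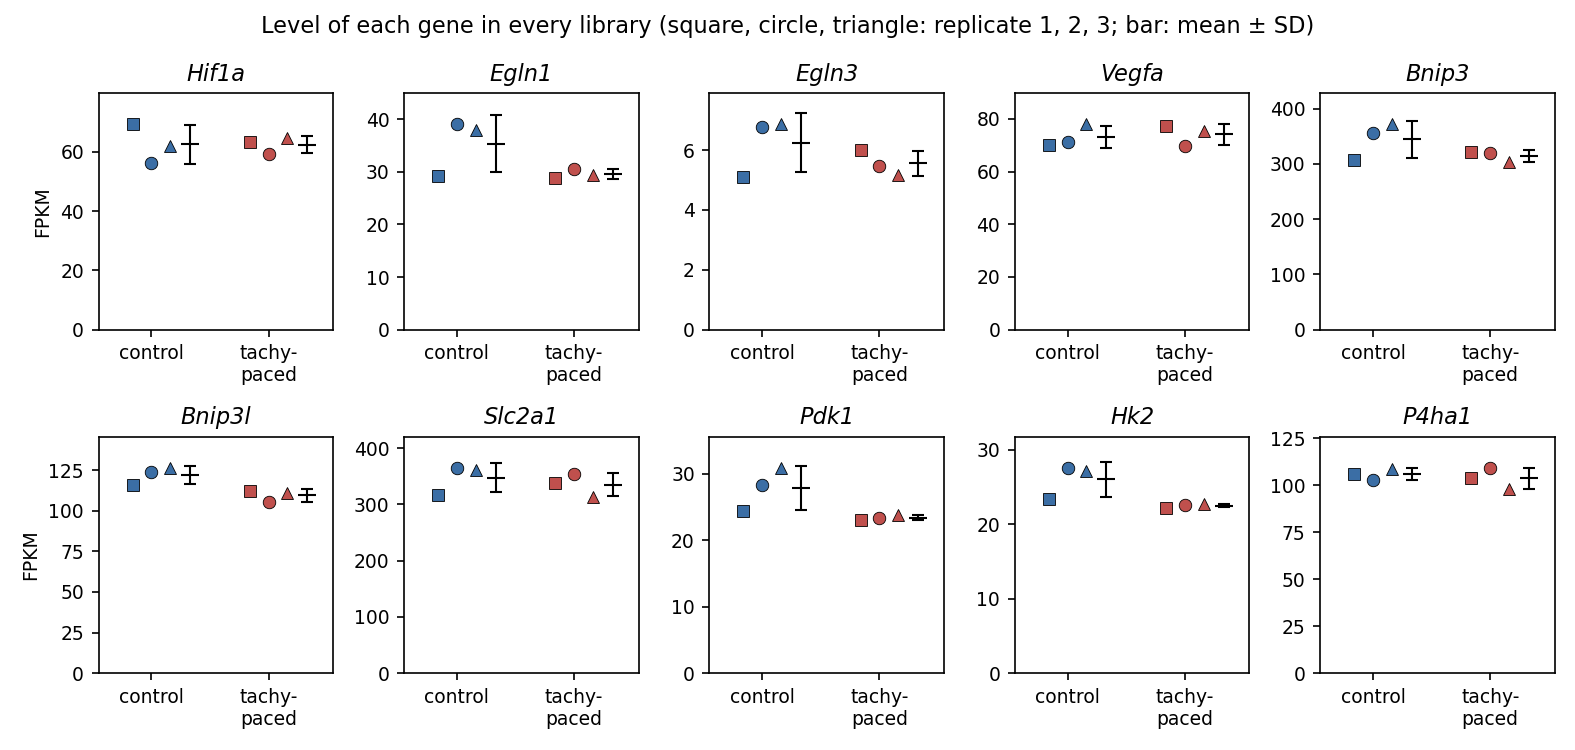
FPKM of each of the 10 genes in the 3 control (blue) and 3 tachypaced (red) libraries, on axes that start at 0; squares, circles and triangles are replicates 1, 2 and 3, and the black bar is the mean ± SD of the group. Bnip3l, Pdk1 and Hk2 have every tachypaced library below every control, and in Egln1 the control square lies among the tachypaced values.

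The test between tachypaced and control libraries called none of these genes. By limma with Benjamini-Hochberg adjustment over 10361 genes, 0 of the 10 passed an adjusted p of 0.05, against 5.52% of all tested genes (2.30% higher and 3.22% lower). At an unadjusted p under 0.05 there were 4 of the 10 (Egln1, Pdk1, Hk2 and Bnip3l), against 30.2% of all tested genes. Log2 fold changes, tachypaced minus control on the log2(FPKM + 1) scale, ran from -0.24 to 0.02 with a median of -0.13, beside a median of -0.04 over all tested genes. The tachypaced libraries lay wholly below the controls in 3 of the 10, Pdk1, Hk2 and Bnip3l, as they did in 22.4% of all tested genes. In 0 of the 10 did they lie wholly above, against 12.6%.

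The oxygen sensors come first. Egln1 (chromosome 8, 124908587 to 124949324, GRCm38) stood at 29.2, 39.02 and 37.9 FPKM in control replicates 1, 2 and 3 and at 28.7, 30.5 and 29.4 FPKM in tachypaced replicates 1, 2 and 3. Control replicate 1 was thus level with the tachypaced libraries and the other controls were above them. The log2 fold change was -0.24 (SE 0.10, 95% interval -0.47 to -0.01, limma adjusted p = 0.146). Without control replicate 1 it was -0.37 (SE 0.05, limma adjusted p = 0.00180), with adjusted p between 0.00180 and 0.370 over all alternatives. Egln3 (chromosome 12, 54178981 to 54203860), whose product hydroxylates HIF and is strongly hypoxia-inducible, stood at 5.12, 6.77 and 6.86 FPKM in the controls and 6.01, 5.48 and 5.18 FPKM with tachypacing. The lowest of its 6 values was a control, and the groups overlapped (log2 fold change -0.14, SE 0.11, limma adjusted p = 0.412). Without control replicate 1 the value was -0.26 (limma adjusted p = 0.0396).

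Hif1a itself (chromosome 12, 73901375 to 73947530) stood at 69.3, 56.4 and 61.8 FPKM in the controls and 63.4, 59.2 and 64.5 FPKM with tachypacing. The tachypaced values lay within the range of the controls, and control replicate 1 had the highest of the 6. The log2 fold change was 0.002 (SE 0.08), and its 95% interval of -0.17 to 0.18 corresponds to a change between -11.3% and 13.0% in FPKM + 1. The sign was not stable: it turned negative in 5 of 15 alternatives, with adjusted p of at least 0.350 throughout. Of the other HIF alpha subunits Epas1 was listed at 0 in all libraries and Hif3a was at or below 0.0534 FPKM, so that Hif1a supplied 99.9% or more of the alpha subunit FPKM in each library. By likeness of profile over the 6 libraries on the log2 scale, the named genes nearest to Hif1a among 9680 were Zbtb34 (r = 0.995), Arid2 (r = 0.993) and Rictor (r = 0.988), and 163 genes had r over 0.9. Nearest to Egln1, the member with the largest fold change, were Pacs1 (r = 0.997) and Haus5 (r = 0.997), among 883 genes over 0.9. These likenesses describe 6 libraries that share 2 groups and an atypical control.

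Among the metabolic targets, Pdk1 and Hk2 separated the groups by a narrow margin. Pdk1 (chromosome 2, 71873224 to 71903858) stood at 24.4, 28.4 and 30.9 FPKM in the controls and at 23.1, 23.3 and 23.8 FPKM with tachypacing. The gap between the lowest control, replicate 1, and the highest tachypaced library was smaller than the spread among controls. Its log2 fold change was -0.24 (SE 0.08, 95% interval -0.42 to -0.05, limma adjusted p = 0.0946), and -0.33 without control replicate 1 (limma adjusted p = 0.00409). Hk2 (chromosome 6, 82725025 to 82774454) stood at 23.3, 27.6 and 27.1 FPKM in the controls and at 22.2, 22.5 and 22.7 FPKM with tachypacing. Here too control replicate 1 was the control next to the tachypaced libraries, which had an SD of only 0.216 FPKM (n = 3). The log2 fold change was -0.20 (SE 0.07, limma adjusted p = 0.103), and -0.27 without that control (limma adjusted p = 0.00513).

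The groups overlapped in Slc2a1 (chromosome 4, 119108711 to 119137983). It stood at 317, 365 and 361 FPKM in the controls and 338, 354 and 313 FPKM with tachypacing, with a log2 fold change of -0.05 (SE 0.07, limma adjusted p = 0.650). The 95% interval of -0.21 to 0.11 covers changes from -13.7% to 7.78%. The value without control replicate 1 was -0.12 and did not pass either (limma adjusted p = 0.165).

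Of the mitophagy receptors, Bnip3l separated the groups and Bnip3 did not. Bnip3 (chromosome 7, 138890836 to 138909519) stood at 307, 356 and 372 FPKM in the controls and 321, 320.3 and 303 FPKM with tachypacing. Control replicate 1 lay inside the tachypaced range, and the log2 fold change was -0.13 (SE 0.07, limma adjusted p = 0.263). Without it the value was -0.21 (limma adjusted p = 0.0152). Bnip3l (chromosome 14, 66985239 to 67008877) stood at 116, 124 and 126 FPKM in the controls and 112, 105 and 111 FPKM with tachypacing. All tachypaced values were lower, by a log2 fold change of -0.15 (SE 0.05, 95% interval -0.28 to -0.03, limma adjusted p = 0.102), and -0.19 without control replicate 1 (limma adjusted p = 0.0181). The ratio of Bnip3 to Bnip3l ran from 2.65 to 2.94 in the controls and from 2.73 to 3.05 with tachypacing, ranges that overlapped.

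Vegfa, whose product is secreted, and P4ha1, whose product modifies collagen, had tachypaced values spread around those of the controls. Vegfa (chromosome 17, 46016993 to 46032369) stood at 70.2, 71.3 and 77.98 FPKM in the controls and 77.2, 69.8 and 75.5 FPKM with tachypacing. The log2 fold change was 0.02 (SE 0.06, 95% interval -0.12 to 0.16, limma adjusted p = 0.861), and its sign turned in 3 of 15 alternatives. P4ha1 (chromosome 10, 59323296 to 59373304) stood at 106, 103 and 109 FPKM in the controls and 104, 109 and 98.2 FPKM with tachypacing, a log2 fold change of -0.03 (SE 0.06, 95% interval -0.16 to 0.10, limma adjusted p = 0.742). The groups overlapped in both genes, and control replicate 1 fell inside the range of the tachypaced libraries, as control replicate 2 did.

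**Figure D2:**
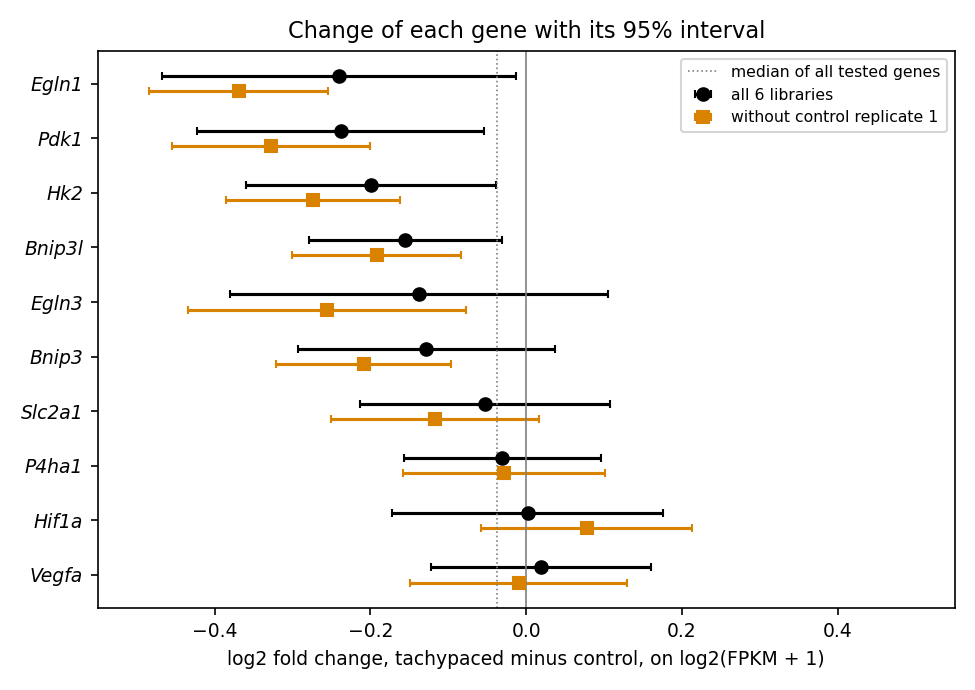
Log2 fold change of each gene (tachypaced minus control, log2(FPKM + 1) scale, horizontal axis) with its 95% interval from limma, over all 6 libraries (black circles) and without control replicate 1 (orange squares); the dotted line is the median of all tested genes. Egln1 moves from -0.24 to -0.37 and Pdk1 from -0.24 to -0.33 without that library, while P4ha1 stays at -0.03.

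Control replicate 1 decided the count. Without it 6 of the 10 were lower at the same threshold, Egln1, Egln3, Pdk1, Hk2, Bnip3 and Bnip3l, and 0 were higher, but 18.8% of all tested genes were then lower and 11.2% higher. It was the lowest of the controls in 8 of the 10 genes and the highest in Hif1a. Leaving out any other library gave 0 of 10 in either direction. Dropping this library removes the control nearest to the tachypaced ones, so the larger count is not further support.

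**Figure D3:**
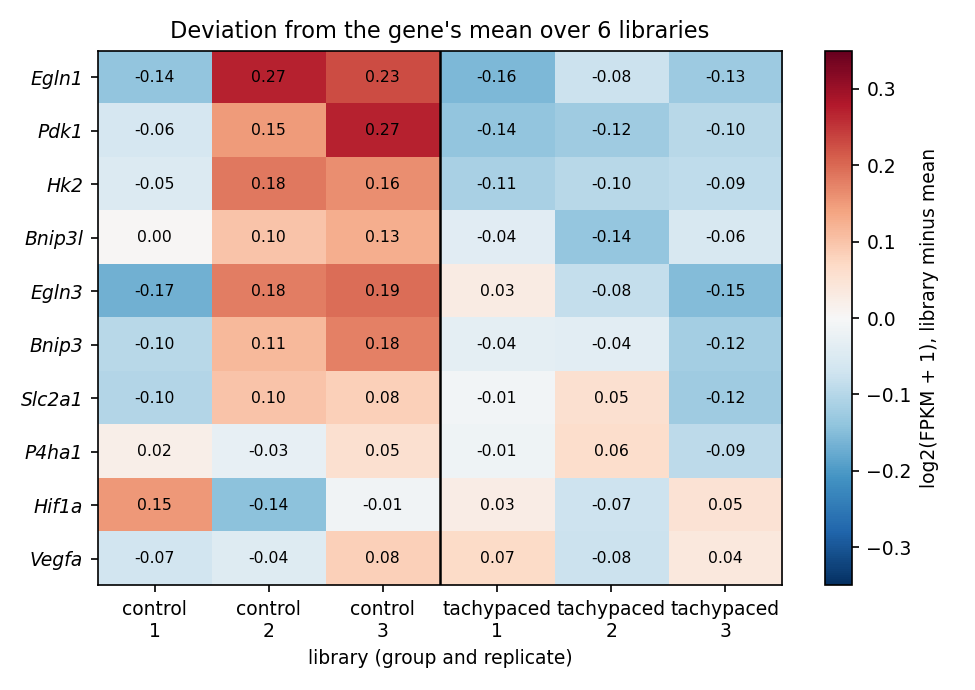
Difference of each library from the gene's mean over the 6 libraries, in log2(FPKM + 1) units (red above, blue below), with genes in rows ordered by fold change and libraries in columns. In Egln1, control replicate 1 is at -0.14, near the tachypaced -0.16, -0.08 and -0.13, while the other controls are at 0.27 and 0.23.

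The rest of the HIF regulatory apparatus was described by a list of 28 genes, of which 24 were tested. Of these 1 fell and 0 rose, near the 3.22% lower and 2.30% higher of all tested genes, with a median log2 fold change of -0.08 beside -0.04 over all tested genes. The tachypaced libraries lay wholly below the controls in 5 of the 24 and wholly above in 6, against 22.4% and 12.6% of all tested genes. An unadjusted limma p under 0.05 was reached by 12 of the 24, against 30.2% of all tested genes. The gene that fell was Hsp90ab1, a cytosolic chaperone with many clients including HIF alpha, from 1178 ± 65.2 to 947 ± 40.4 FPKM (SD, n = 3 each), a log2 fold change of -0.31 (SE 0.06, limma adjusted p = 0.0435), and -0.35 without control replicate 1 (limma adjusted p = 0.00340). Arnt, the constant partner, stood at 35.1 ± 1.95 and 33.1 ± 1.25 FPKM (limma adjusted p = 0.382). Vhl, the substrate receptor that marks hydroxylated HIF for degradation, stood at 22.2 ± 0.361 and 21.4 ± 1.31 FPKM (limma adjusted p = 0.610). Hif1an (FIH, an asparagine hydroxylase that blocks coactivator binding) stood at 5.69 ± 0.0836 and 5.79 ± 0.392 FPKM. Egln2 (PHD1) stood at 6.70 ± 0.951 and 5.67 ± 0.582 FPKM (limma adjusted p = 0.223). Without control replicate 1, 5 of the 24 fell and 3 rose, near the 18.8% and 11.2% of all tested genes in that fit. Without any other single library 0 passed, in fits that called 1 to 12 of all 10361 tested genes higher and 0 to 1 lower.

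Other hypoxia targets formed a list of their own. Of 52 further symbols 51 were in the table and 39 were tested, of which 1 fell and 0 rose, near the 3.22% and 2.30% of all tested genes, with a median log2 fold change of -0.16. That gene was Gbe1, the glycogen branching enzyme, from 98.5 ± 14.8 to 73.3 ± 1.07 FPKM (log2 fold change -0.41, SE 0.10, limma adjusted p = 0.0479). The tachypaced libraries lay wholly below the controls in 12 of the 39 and wholly above in 1, against 22.4% and 12.6% of all tested genes. An unadjusted limma p under 0.05 was reached by 20 of the 39, against 30.2% of all tested genes. Ddit4 (REDD1, an inhibitor of mTORC1) stood at 36.9, 54.4 and 54.5 FPKM in the controls and at 37.3, 35.01 and 37.2 FPKM with tachypacing (limma adjusted p = 0.0958), again with control replicate 1 among the tachypaced values. Adm (adrenomedullin, a vasodilator peptide) stood at 209.9 ± 39.3 and 196 ± 12.2 FPKM, Slc2a3 (the glucose transporter GLUT3) at 17.2 ± 0.954 and 17.2 ± 0.434 FPKM, and Nos2 (inducible nitric oxide synthase) at 75.9 ± 6.67 and 70.9 ± 3.03 FPKM. Their limma adjusted p-values were 0.674, 0.970 and 0.398. Without control replicate 1, 23 of the 39 fell and 1 rose, against 18.8% and 11.2% of all tested genes, Adm, Ddit4 and Nos2 among those that fell. Without any other single library 0 passed, where 1 to 12 of all 10361 tested genes were higher and 0 to 1 lower. The hypoxia-inducible hormone gene Epo and the lysyl oxidase gene Lox were at or near 0, with at most 0.0505 FPKM.

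Glycolytic enzymes, many of them also HIF targets, form the next list, and whether it differs from the 10 genes was not tested. Of 16 genes 5 fell and 1 rose, against 3.22% and 2.30% of all tested genes, with a median log2 fold change of -0.26. The tachypaced libraries lay wholly below the controls in 13 of the 16 and wholly above in 2, against 22.4% and 12.6% of all tested genes. An unadjusted limma p under 0.05 was reached by 15 of the 16, against 30.2% of all tested genes. The enolase gene Eno1 fell from 916 ± 117 to 704 ± 7.28 FPKM, and the phosphoglycerate kinase gene Pgk1 from 1956 ± 172 to 1567 ± 25.8 FPKM. Gapdh, which has many processed pseudogenes among which reads could be divided, fell from 111 ± 6.80 to 86.2 ± 4.03 FPKM, and Gpi1 and Pfkm, named after their values were seen, had log2 fold changes of -0.26 and -0.25. Ldha, the lactate dehydrogenase subunit, stood at 1762 ± 314 and 1279 ± 46.7 FPKM and missed the threshold (log2 fold change -0.45, SE 0.12, limma adjusted p = 0.0568, and 0.000551 without control replicate 1). Hk1, the constitutive hexokinase, missed it too (109 ± 14.1 and 84.8 ± 1.86 FPKM, limma adjusted p = 0.0518, and 0.000560 without that control). Hk3, the hexokinase of myeloid cells, rose from 33.3 ± 4.72 to 44.2 ± 2.64 FPKM (log2 fold change 0.40, SE 0.09, limma adjusted p = 0.0466), in libraries whose macrophage marker sum was also higher. Leaving out control replicate 1 gave 13 lower and 1 higher, against 18.8% and 11.2% of all tested genes. Any other library left out gave 0 in either direction, where 1 to 12 of all 10361 tested genes were higher and 0 to 1 lower.

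**Figure D4:**
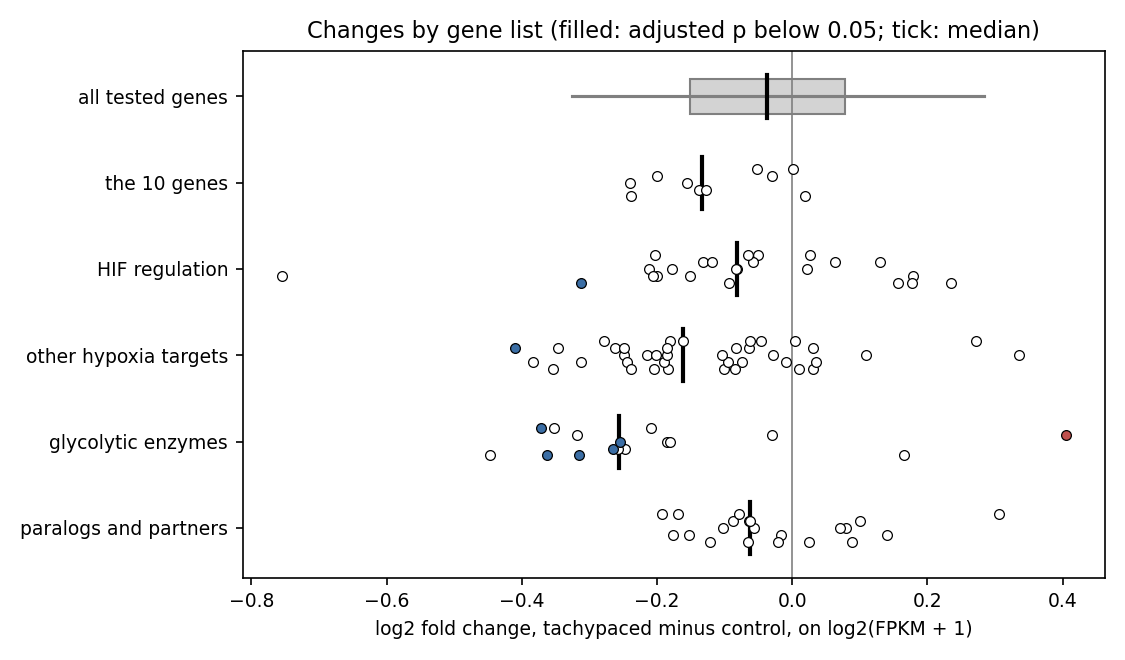
Log2 fold changes (tachypaced minus control, log2(FPKM + 1) scale) of the tested genes of each list, filled where the adjusted p was below 0.05 (blue lower, red higher), with the median as a tick; the top row gives the 5th to 95th percentile (line) and quartiles (box) of all tested genes. The 10 genes, all unfilled, have a median of -0.13, and the glycolytic enzymes a median of -0.26 with 6 filled points.

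Paralogs and partners of the 10 were the last list, in which 0 of 21 tested genes passed in either direction by limma, with 3 of them at an unadjusted p under 0.05, against 5.52% and 30.2% of all tested genes. The tachypaced libraries lay wholly below the controls in 5 of the 21 and wholly above in 1, against 22.4% and 12.6% of all tested genes. FPKM of the paralogs can be set beside those of the 10 as shares of each family. Egln1 made up 71.2% to 75.02% of the FPKM of the PHD hydroxylases in the controls and 72.2% to 72.8% with tachypacing. Hk2 held 15.1% to 15.7% of the hexokinase FPKM in the controls and 14.5% to 15.2% with tachypacing, while Hk1 went from between 59.9% and 67.3% to between 55.4% and 57.05%, and Hk3 from between 17.2% and 25.02% to between 27.8% and 30.1%. The groups did not overlap in the shares of Hk1 and Hk3, and did in that of Hk2. Pdk1 held 36.3% to 39.98% of the pyruvate dehydrogenase kinase FPKM in the controls and 35.5% to 36.04% with tachypacing, and Pdk3 54.9% to 57.4% and 58.04% to 58.9%, in both cases without overlap. Shares within a family are parts of the same sum, so the separations of Hk1 and Hk3, and of Pdk1 and Pdk3, are not independent. For Pdk1 the gap was narrow, between 36.3% in control replicate 1 and 36.04% in tachypaced replicate 2. No test of the shares was run. Pdk3 exceeded Pdk1 among the pyruvate dehydrogenase kinases, at 41.8 ± 3.08 and 38.2 ± 0.632 FPKM (limma adjusted p = 0.220), Pdk2 stood at 4.38 ± 0.372 and 3.83 ± 0.201 FPKM, and Pdk4 was listed at 0. Slc2a1 made up 85.7% to 88.2% of the FPKM of the 5 glucose transporters compared, over all libraries.

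P4hb, the protein disulfide isomerase that pairs with P4ha1, was far more abundant than it, at 1327 ± 75.004 FPKM in the controls and 1174 ± 38.6 FPKM with tachypacing (limma adjusted p = 0.0922), and the alternative subunit P4ha2 was at or below 0.174 FPKM. Vegfb, a second ligand of the VEGF family, was close to Vegfa, at 61.6 ± 3.42 and 65.5 ± 0.373 FPKM (limma adjusted p = 0.307). The receptor gene Flt1 (VEGFR1, carried by monocytes as well as endothelium) stood at 19.9 ± 0.117 and 18.97 ± 0.483 FPKM (limma adjusted p = 0.452), whereas Kdr (VEGFR2) did not exceed 0.0254 FPKM anywhere. Without control replicate 1, 3 of the 21 fell and 3 rose, Pdk3 and P4hb among those that fell, near the 18.8% and 11.2% of all tested genes.

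**Figure D5:**
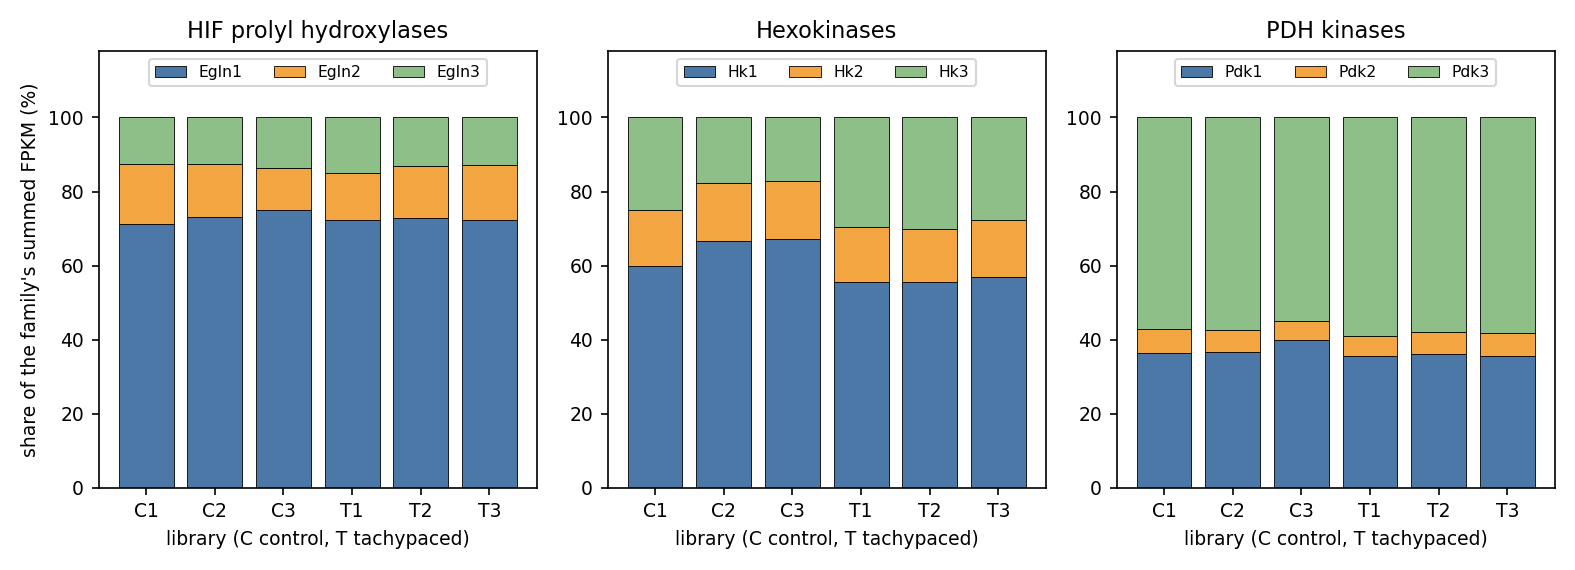
Share of each family's summed FPKM (percent, vertical axis from 0) held by each gene in the 3 control (C1 to C3) and 3 tachypaced (T1 to T3) libraries, for the HIF prolyl hydroxylases, the hexokinases and the pyruvate dehydrogenase (PDH) kinases. Hk3 holds 27.8% to 30.1% in tachypaced and 17.2% to 25.02% in control libraries, while Egln1 stays between 71.2% and 75.02%.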

How the data were processed

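The values used are FPKM as deposited by the authors, for 6 libraries by 23060 gene names. A SMARTER mRNA kit was used, per the labels' protocols, and reads were placed on GRCm38 (mm10) according to the submitters' processing notes. The strand setting, the annotation, the aligner and the quantifier are not stated in the labels or the file, and antisense genes overlap Hif1a, Bnip3, Slc2a1 and Hk2. On the same strand, the protein-coding gene Gm49321 overlaps Hif1a and the microRNA gene Mir1957a overlaps Slc2a1. Low values fell on no common step (at most 5.15% of their log2 ratios in a bin of 0.05), so depth is unknown and no counting interval is given. Columns were matched to samples through the descriptions in the labels.

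Values were transformed to log2(FPKM + 1), which understates the change of low genes, and limma 3.58.1 (R 4.3.3) was run on the 10361 genes whose mean reached 1 FPKM (trend, two-sided, no covariates, Benjamini-Hochberg over all of them, threshold 0.05). The steps were tested on simulated data. The genes and lists were chosen with earlier results of these data known. Named were the 10 genes, up to 4 called genes per list with the largest change, a fixed set of pathway genes whatever their result, and the 3 nearest profiles to Hif1a and to the member of largest fold change. Of the genes this rule names, 1 is left out of the text. Positions are from GENCODE M21 and promoters from RefSeq. Alternatives were another pseudocount, other filters, 3 scalings, limma settings, a block for the replicate number and the removal of each library in turn. Python 3.11.15 with pandas 2.3.3, numpy 2.4.6 and matplotlib 3.10.9 made tables and figures.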

Additional observations from a re-analysis of the deposited data

How the results depend on the processing

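Over 15 alternatives, the 10 genes had 0 calls in either direction except without control replicate 1, with 6 lower. Leaving out each replicate in turn gave 0 to 6 of the 10 lower. Several of the 15 fits called few or none of all tested genes, as given below. Egln1, Egln3, Bnip3, Bnip3l, Slc2a1, Pdk1 and Hk2 kept a negative sign in all 15. Hif1a reversed with a common FPKM total (-0.037), as Vegfa did (-0.0196). Leaving out each replicate in turn took Hif1a from -0.0691 to 0.0776, negative in 4 of 6, Vegfa from -0.0101 to 0.0653, negative without control replicate 1 or tachypaced replicate 1, and P4ha1 from -0.0686 to 0.00759, positive without tachypaced replicate 3.

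All genes called numbered 238 higher and 334 lower. They numbered 0 and 0 without a filter, 13 and 4 with quantile normalization, 2 and 0 without the trend, 221 and 183 with median of ratios scaling, and 250 and 922 with a common total, which moved the median of all genes from -0.04 to -0.07. Leaving out a replicate gave 1 to 1162 higher and 0 to 1947 lower, the highest without control replicate 1. With a minimum of 5 FPKM they numbered 288 and 475, of 7483 genes tested. With the replicate block they numbered 334 and 591. Deviations of same-numbered libraries from their group means correlated at 0.06, -0.03 and 0.16 for numbers 1 to 3. Those of differently numbered libraries correlated at -0.16 to 0.08. With 3 libraries per group these values cannot decide whether the number marks a pairing, and the main fit assumed none. The deviations of control replicate 1 correlated with those of tachypaced replicates 1, 2 and 3 at 0.06, 0.08 and -0.16. Each group was centred on its own mean, so these values cannot show whether control replicate 1 lay toward the tachypaced libraries.

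The HIF regulation list had 0 lower without a filter or trend. It had 2 lower with a minimum of 5 FPKM (of 22 tested), a common total or the replicate block. Leaving out a replicate gave 0 to 3 higher and 0 to 5 lower. The other hypoxia targets had 0 lower without a filter, without the trend, or with median of ratios or quantile scaling, 6 with a common total, and 0 to 23 lower and 0 to 1 higher leaving out a replicate. Glycolytic enzymes had 0 higher and 0 lower without a filter, without the trend or with quantile normalization. They had 1 lower with median of ratios scaling, 8 with a minimum of 5 FPKM and 12 with a common total. All genes called lower in these 3 fits numbered 183, 475 and 922. Leaving out a replicate gave 0 to 1 higher and 0 to 13 lower for the glycolytic enzymes. Paralogs and partners had 2 lower with a common total, and 0 to 3 in each direction leaving out a replicate. List counts under alternatives were added after seeing the data. The causes were not tested.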

Other observations

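A pair of further hypoxia targets is named here after their values were seen. Gys1, the muscle-type glycogen synthase, stood at 45.6, 62.2 and 62.6 FPKM in the controls and at 44.01, 45.4 and 45.9 FPKM with tachypacing (limma adjusted p = 0.101, and 0.000642 without control replicate 1). Ankrd37, a small ankyrin repeat gene induced by HIF, stood at 13.2, 20.9 and 21.3 FPKM in the controls and at 13.6, 14.4 and 13.9 FPKM with tachypacing (limma adjusted p = 0.154, and 0.000612 without control replicate 1). Control replicate 1 lay inside the tachypaced range in Gys1 and just under it in Ankrd37.

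The placental growth factor gene Pgf, a ligand of the receptor Flt1, was the only one of the 39 other hypoxia targets whose tachypaced libraries all lay above the controls. It stood at 15.3, 14.6 and 14.2 FPKM in the controls and at 20.9, 16.7 and 16.4 FPKM with tachypacing (log2 fold change 0.27, SE 0.09, limma adjusted p = 0.0915), and without control replicate 1 it passed the threshold (log2 fold change 0.30, limma adjusted p = 0.0485). Of the mitophagy genes beside Bnip3 and Bnip3l, Fundc1, a receptor of the outer mitochondrial membrane, stood at 22.3, 20.3 and 20.6 FPKM in the controls and at 20.1, 20.8 and 21.3 FPKM with tachypacing.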
